A study of Mus musculus with 9 samples.

Results

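The 10 genes Myh6, Myh7, Myl7, Myl2, Ttn, Actc1, Tnnt2, Tnni1, Tnnc1 and Nppa, grouped here as cardiac sarcomere genes, were examined for chromatin accessibility in ATAC-seq peak lists of sorted mouse embryonic cells. They were picked by name out of 22367 annotated protein-coding genes, and each locus was the mm9 gene body with 50 kb on each side. A peak belonged to a locus when its midpoint lay in that window, and it was a promoter peak when the midpoint was within 1 kb of an annotated transcription start site (TSS), otherwise distal. After merging, the 10 windows formed 8 stretches of 1.23 Mb in all, because Myh6 and Myh7 share 1 stretch and Tnni1 and Tnnt2 share another. When the peaks of the 9 libraries were merged by an overlap of at least 1 bp, 76 of 73343 merged regions lay in these stretches, and 51 of the 76 were distal.

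All embryos were Swiss Webster mice at E9.5, and all sorted cells were GFP-positive through a Rosa26-GFPflox/+ reporter switched on by Cre, with 3 libraries per group. The Mesp1-Cre Ctrl group (Mesp1Cre;Rosa26-GFPflox/+) labels descendants of the early mesoderm, since Cre is made from the Mesp1 locus. The Tbx1-Cre Ctrl group (Tbx1Cre;Rosa26-GFPflox/+) labels cells with a history of Tbx1 expression, which include pharyngeal mesoderm but also non-mesodermal pharyngeal tissue. In the Tbx1-Cre cKO group (Tbx1Cre/flox;Rosa26-GFPflox/+) the remaining Tbx1 copy is floxed. In both Tbx1-Cre groups 1 Tbx1 allele carries Cre, so the control cells of that line are not wild-type for Tbx1. Embryos were pooled for each library, and the study accounts for the embryos of each library separately, so p-values measure the spread between pools. The labels name the tissue as pharyngeal apparatus and heart, with the back included for the Tbx1-Cre groups, whereas the ATAC-seq methods of the study describe dissection of the pharyngeal apparatus without the heart. In a sorted mixture, fewer cells of a type and less open chromatin per cell cannot be told apart.

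The sarcomere is the contractile unit of striated muscle. Myosin heavy chains (Myh6, Myh7) and their light chains (Myl7, Myl2) form thick filaments, cardiac alpha-actin (Actc1) forms thin filaments, and the troponin complex (Tnnt2, Tnni1, Tnnc1) makes the thin filament respond to calcium. Titin (Ttn) is the giant spring that spans from the Z-disc to the M-line. Nppa is not a part of the sarcomere and encodes the natriuretic peptide ANP, which is made by working myocardium of the embryonic chambers. Counts at the sarcomere loci include its window. Cardiopharyngeal mesoderm of the pharyngeal arches gives rise to part of the heart and to head muscles, and Tbx1 encodes a T-box transcription factor needed for that mesoderm to develop.

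The lists differed in length before any locus was considered. They held 25485 to 42650 peaks in the Mesp1-Cre Ctrl libraries, 43298 to 49490 in the Tbx1-Cre Ctrl libraries and 19772 to 29251 in the Tbx1-Cre cKO libraries, of which 47 to 62.2%, 63.9 to 66.1% and 37 to 50.7% were distal, respectively. Read depth is unknown, and no 2 lists were identical. The list of Mesp1-Cre Ctrl library 1, the longest of its group with 42650 peaks, has a length that no library has in the study's overview of its ATAC-seq samples, whereas the lengths of the other lists are all found there. Several comparisons with Mesp1-Cre Ctrl are therefore given with and without that library, and the others include it. At the targeted gene, the Tbx1 gene and the 10 kb on each side held 1 peak in each Mesp1-Cre Ctrl library, 3, 2 and 2 peaks in the Tbx1-Cre Ctrl libraries and none in the 3 Tbx1-Cre cKO libraries. With 50 kb on each side these were 10, 9 and 8, then 12 in each Tbx1-Cre Ctrl library, then 6, 4 and 4 in cKO. Because the lists differ in length, these counts cannot show whether the floxed copy was deleted.

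Promoters of the sarcomere genes were largely without peaks in all 3 groups. For 7 of the 10 members (Myh6, Myh7, Myl7, Myl2, Tnnt2, Tnnc1 and Nppa) no library had a peak within 1 kb of a TSS, and no member had a promoter peak in all 9 libraries. Over all 22367 protein-coding genes, 48.6% had a promoter peak in all 9 libraries and 34% in none. The 27 other protein-coding genes with a TSS in the same windows included 14 with a promoter peak in all 9 libraries, such as Ngdn, Efs and Slc22a17 around the myosin genes, and 3 with none. At Myh6 the closest peak to a TSS lay 18185 to 31607 bp away depending on the library. No library had a peak with its midpoint inside the bodies of Myh6, Myh7, Myl7, Tnnc1 (in the shorter gene model used here) or Nppa. Tnnc1 differed in that each library had a peak 1251 to 2295 bp from its TSS, just beyond the 1 kb limit, in a region at the promoter of the overlapping neighbour Nisch. The middle of that region lies inside the longer annotated model of Tnnc1.

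Actc1 was the member with the most promoter peaks. In the 3 Tbx1-Cre Ctrl libraries the Actc1 promoter peak was 676, 637 and 664 bp wide. Tbx1-Cre cKO libraries 2 and 3 had peaks of 244 and 232 bp there, cKO library 1 had none, and none of the Mesp1-Cre Ctrl libraries had one. The widths of the Tbx1-Cre Ctrl and cKO peaks did not overlap, and the nearest Mesp1-Cre Ctrl peak lay 4109 bp from the region. A promoter peak in all 3 Tbx1-Cre Ctrl libraries and in no Mesp1-Cre Ctrl library was found at 0.434% of protein-coding genes. The merged region spans chr2:113878204-113879020 (mm9) in an Actc1 exon, with its middle 11 bp from an Actc1 TSS. Its central 300 bases (chr2:113878462-113878761, + strand, Actc1 being transcribed from the - strand) are shown because this is the promoter seen in most libraries. Capitals mark, in this order, a T-box core (GGTGT, position 88), a TATA box (TATAAA on the - strand, position 112) and a CArG box, the serum response factor element (position 188), with positions counted from the first printed base.

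Actc1 promoter: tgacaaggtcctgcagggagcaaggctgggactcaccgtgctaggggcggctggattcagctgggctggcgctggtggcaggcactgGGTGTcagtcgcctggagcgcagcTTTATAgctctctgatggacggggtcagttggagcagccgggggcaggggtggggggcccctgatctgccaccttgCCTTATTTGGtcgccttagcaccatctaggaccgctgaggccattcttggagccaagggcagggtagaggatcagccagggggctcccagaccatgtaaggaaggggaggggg

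Tnni1, the slow skeletal troponin I that is also the troponin I of the embryonic heart, had the reverse distribution between the control lines. All 3 Mesp1-Cre Ctrl libraries had a Tnni1 promoter peak, 617, 199 and 708 bp wide, against 1 Tbx1-Cre Ctrl library (200 bp) and no Tbx1-Cre cKO library. That Tbx1-Cre Ctrl library had a further peak in the same merged region, with its midpoint past the 1 kb limit, and its peaks there covered 546 bp in sum. A promoter peak in all 3 Mesp1-Cre Ctrl libraries and in no Tbx1-Cre cKO library was found at 0.528% of protein-coding genes. The region (chr1:137696944-137697664) lies in an intron, 17662 bp inside the annotated 5' end of Tnni1 and 894 bp past an internal TSS, and the closest cKO peak was 10386 bp away. The middle of that region is printed with its only match other than E-boxes, a T-box core (GGTGT at position 87).

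Tnni1 internal promoter (chr1:137697154-137697453, + strand): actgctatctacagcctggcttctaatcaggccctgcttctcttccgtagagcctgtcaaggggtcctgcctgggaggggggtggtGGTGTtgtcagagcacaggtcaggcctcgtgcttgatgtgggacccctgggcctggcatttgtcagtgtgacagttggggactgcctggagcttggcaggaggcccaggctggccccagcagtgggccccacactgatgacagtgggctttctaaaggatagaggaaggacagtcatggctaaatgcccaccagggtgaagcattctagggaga

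Ttn had a promoter peak in 1 library of each group, 199 bp in Mesp1-Cre Ctrl library 1, 490 bp in Tbx1-Cre Ctrl library 3 and 207 bp in Tbx1-Cre cKO library 1, so it did not separate the groups. That region (chr2:76818248-76818781, in a Ttn intron) is 2089 bp inside the annotated 5' end and 276 bp upstream of an internal TSS. Summed over the members, each library had 1 or 2 promoter peaks, with means of 1.33 ± 0.577 (SD, n = 3) in Mesp1-Cre Ctrl, 1.67 ± 0.577 in Tbx1-Cre Ctrl and 1 in each cKO library. The cKO mean differed by -0.667 from Tbx1-Cre Ctrl (exact two-sided permutation p = 0.4) and by -0.333 from Mesp1-Cre Ctrl (exact p = 1), and the groups overlapped in both.

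RefSeq promoter sequences (GRCm38.p6, 250 bases before to 50 after the start) were present for all 10 members. TEAD motifs (CATTCC), bound by Hippo pathway factors, were found in 6 of the 10 (Myh6, Myh7, Myl7, Ttn, Tnnt2 and Tnnc1) against 16.6% of 27025 genes. TATA boxes (TATAAA) were in 4 of 10 (Myh6, Myl2, Actc1 and Nppa) against 15.7%, CArG boxes in 2 (Actc1 and Myl7) against 1.81%, GATA motifs (AGATAA) in 2 (Tnnt2 and Myl2) against 12.7% and a MEF2 motif in 1 (Ttn) against 0.636%. T-box cores (GGTGT) in 5 and NKX2-5 cores (AAGTG) in 6 stood beside 45.1% and 50% of all genes, and every member held an E-box (CANNTG) against 75%. Both strands were searched, and a T-box or NKX2-5 core can share letters with another motif. Of the 4 members with a TATA box in the RefSeq sequence, 1 (Actc1) had a promoter peak. Of the 6 with a TEAD motif there, 1 (Ttn) did. The Ttn and Tnni1 promoter peaks lay near internal TSS, in regions 2089 and 17662 bp inside the annotated 5' ends. The middle of the Ttn region held a TATA box and an NKX2-5 core, both absent from the RefSeq sequence of Ttn. Whether motif and peak fell on the same promoter was therefore not tested by these tallies.

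The Tbx1-Cre cKO lists held fewer peaks at the sarcomere loci than the Tbx1-Cre Ctrl lists, 27 ± 6.08 (SD, n = 3) against 43.7 ± 7.23 with no overlap between libraries (exact two-sided permutation p = 0.1, adjusted 0.3), and most of that difference lay in the distal peaks. Per 10000 peaks of the list the direction turned, with 10.3, 12.9 and 10.1 peaks at the loci in cKO against 10.5, 9.24 and 8.3 in Tbx1-Cre Ctrl, or 11.1 ± 1.57 against 9.35 ± 1.11 with overlap (exact permutation p = 0.3). The Tbx1-Cre Ctrl libraries had 30, 20 and 21 distal peaks at the 10 loci, the cKO libraries 11, 11 and 6, and the Mesp1-Cre Ctrl libraries 29, 13 and 14. Every cKO library was below every library of both control groups. The mean was 9.33 ± 2.89 (SD, n = 3) in cKO against 23.7 ± 5.51 in Tbx1-Cre Ctrl, a difference of -14.3 peaks or 60.6% (exact permutation test, two-sided, p = 0.1, which is the lowest p that 3 libraries against 3 can give, and 0.3 after Benjamini-Hochberg adjustment over 12 contrasts). Against Mesp1-Cre Ctrl (18.7 ± 8.96) the difference was -9.33 (exact p = 0.1, adjusted 0.3), and without Mesp1-Cre Ctrl library 1 it was -4.17 (exact p = 0.3), still with no overlap. Between the control groups it was -5 in Mesp1-Cre Ctrl (exact p = 0.5) with overlapping libraries, and -10.2 (exact p = 0.1) without that library. Peaks at promoters of the neighbouring genes numbered 23, 16 and 17 in Mesp1-Cre Ctrl, 20, 19 and 16 in Tbx1-Cre Ctrl and 18, 19 and 13 in cKO, and these overlapped between all groups.

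These counts moved with the length of the lists. Per 10000 peaks of the list, distal peaks at the loci numbered 6.06, 4.62 and 4.47 in Tbx1-Cre Ctrl, 3.76, 4.58 and 3.03 in cKO and 6.8, 5.1 and 4.58 in Mesp1-Cre Ctrl. Distal peaks made up 37 to 50.7% of the cKO lists and 63.9 to 66.1% of the Tbx1-Cre Ctrl lists. Scaling by all peaks leaves that difference in, and scaling by the distal peaks of the list was not tested. The cKO mean of 3.79 ± 0.771 differed by -1.26 from Tbx1-Cre Ctrl (5.05 ± 0.880, exact two-sided permutation p = 0.2), with overlap, and by -1.705 from Mesp1-Cre Ctrl (5.495 ± 1.16, exact p = 0.1, adjusted 0.3), or by -1.05 without Mesp1-Cre Ctrl library 1 (exact p = 0.2). When each list was reduced to its 19772 widest peaks, the cKO mean was 1.67 distal peaks above Tbx1-Cre Ctrl (exact permutation p = 0.4) and 0.333 above Mesp1-Cre Ctrl (exact p = 1), so the direction of both differences turned. That cut left the list of cKO library 3 whole and took the narrower peaks from the Tbx1-Cre Ctrl lists of 43298 to 49490. Distal regions at the loci had a median mean peak width of 285.4 bp. The list medians of 444 to 514 bp include promoter peaks, and the width of distal regions over the genome was not compared. Because the lists differ in length, the cut fell unevenly on the groups, and what the turn reflects was not tested.

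**Figure D1:**
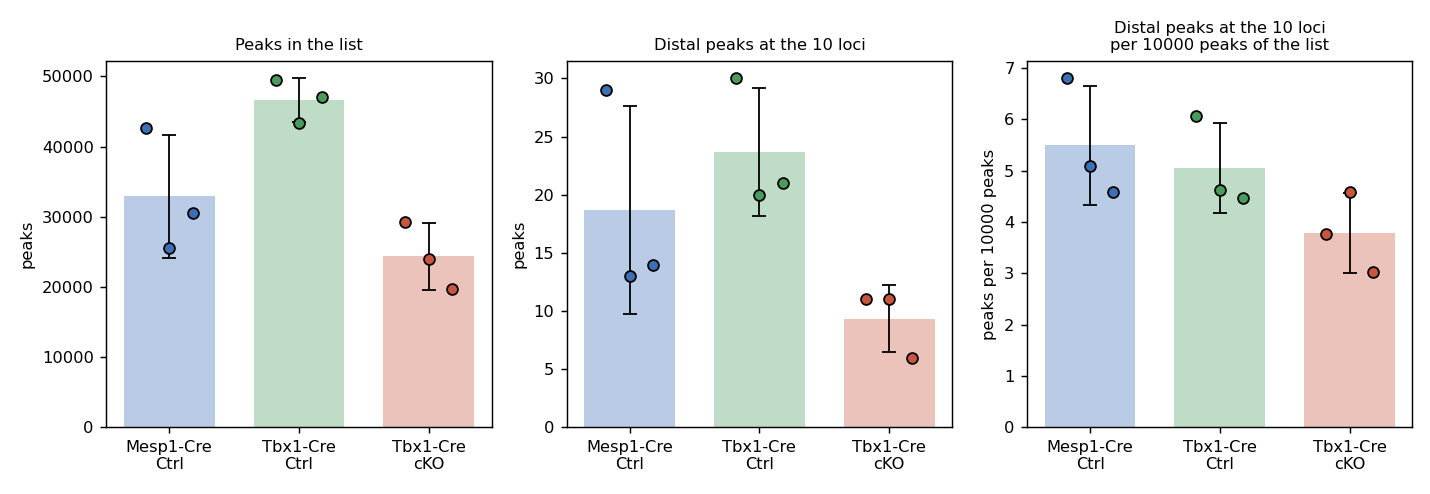
Peaks in each list (left), distal peaks at the 10 sarcomere loci (middle) and the latter per 10000 peaks of the list (right). Points are the 3 libraries of a group, bars the mean and error bars the SD. The 3 cKO libraries have 6 to 11 distal peaks at the loci, below the 13 to 30 of the control libraries, while per 10000 peaks cKO and Tbx1-Cre Ctrl overlap.

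Among single members, Myh7, Tnnt2, Tnni1 and Ttn had fewer distal peaks in every cKO library than in every Tbx1-Cre Ctrl library, 4 of 10 against 25.3% of the 18473 genes with any distal peak in their window. All 10 members met that filter, and all 10 had a lower cKO mean, as did 88.2% of the genes. Per 10000 peaks, 6 of the 10 had a lower cKO mean against 68.7% of the genes, and Myh6, Myl2, Nppa and Tnnc1 had a higher one. The median difference over the members was -1.33 peaks and over all these genes -1. For each of the 4 genes the exact permutation p was 0.1 and 0.395 after Benjamini-Hochberg adjustment over the 18473 genes. No gene had an adjusted p under 0.05, and with 3 libraries against 3 no unadjusted p can fall under it, while 4681 genes reached the smallest possible p of 0.1. With promoter peaks included, 3 members (Myh7, Tnnt2 and Tnni1) lay below without overlap, against 27.1% of 20127 genes. Tnnt2 and Tnni1 have windows that share regions, so these members are not independent in either count.

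Myh7, the slow or beta myosin heavy chain, had no distal peak in the cKO lists. Its window held 5, 2 and 3 distal peaks in Mesp1-Cre Ctrl, 1, 1 and 3 in Tbx1-Cre Ctrl and none in any cKO library. Per 10000 peaks this was 0.980 ± 0.194 (SD, n = 3) in Mesp1-Cre Ctrl, 0.357 ± 0.244 in Tbx1-Cre Ctrl and 0 in cKO, and the 3 groups did not overlap. Myh6, the fast or alpha chain next to it, had 4, 3 and 2 distal peaks in Mesp1-Cre Ctrl, 1, 0 and 3 in Tbx1-Cre Ctrl and 0, 1 and 1 in cKO. The mean of both myosin heavy chain windows was thus highest in Mesp1-Cre Ctrl, and all of their distal peaks lay outside the 2 gene bodies. Without scaling, Myh6, Myh7 and Tnni1 had fewer distal peaks in every cKO library than in every Mesp1-Cre Ctrl library (3 of 10 against 6.26% of genes, exact permutation p = 0.1, adjusted 1).

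Per 10000 peaks, Myh6 had 0.923 ± 0.261 distal peaks in Mesp1-Cre Ctrl against 0.280 ± 0.326 in Tbx1-Cre Ctrl and 0.307 ± 0.270 in cKO, with the Mesp1-Cre Ctrl libraries above all others. On this scale Myh6 and Myh7 were the members in which every Mesp1-Cre Ctrl library was above every Tbx1-Cre Ctrl library (2 of 10 against 8.28% of genes, exact permutation p = 0.1, adjusted 0.579), and unscaled counts gave no such member. The same pair lay above cKO (2 of 10 against 6.64%, adjusted 0.929). Without Mesp1-Cre Ctrl library 1 the Mesp1-Cre Ctrl means were 0.916 for Myh6 and 0.884 for Myh7, and both remaining libraries were above every library of the other groups (exact p = 0.2 against Tbx1-Cre Ctrl and 0.1 against cKO). The windows of Myh6 and Myh7 share regions, so these are not 2 independent genes.

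Ttn had 1, 4 and 4 distal peaks in Tbx1-Cre Ctrl, 3, 1 and 0 in Mesp1-Cre Ctrl and none in cKO. With Myh7 it was the member that stayed below Tbx1-Cre Ctrl without overlap when counts were taken per 10000 peaks (2 of 10 against 13.3% of genes, adjusted exact permutation p = 0.519). All of these peaks lay inside the long Ttn gene body, where the cKO lists held only the 207 bp promoter peak.

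Of the troponins, Tnni1 had the most distal peaks, 10, 7 and 6 in Tbx1-Cre Ctrl, 6, 4 and 4 in Mesp1-Cre Ctrl and 3 in each cKO library. Tnnt2, the cardiac troponin T, had 6, 4 and 3 in Tbx1-Cre Ctrl, 3, 2 and 3 in Mesp1-Cre Ctrl and 2, 2 and 0 in cKO. Tnnc1, the troponin C of cardiac and slow muscle, had 2, 1 and 1, then 3, 1 and 0, then 2, 1 and 0 in these 3 groups in the same order. Tnni1 and Tnnt2 thus separated cKO from Tbx1-Cre Ctrl, while Tnnc1 overlapped between all groups. Per 10000 peaks, Tnni1 (1.64 ± 0.373 in Tbx1-Cre Ctrl, 1.26 ± 0.246 in cKO, exact permutation p = 0.2) and Tnnt2 (0.925 ± 0.287 and 0.505 ± 0.444, exact p = 0.3) overlapped too. The windows of Tnni1 and Tnnt2 share regions, so their counts are not independent of each other.

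The remaining members did not separate the groups. Actc1 had 0 to 2 distal peaks in any library. Myl7 and Myl2, the atrial and ventricular regulatory light chains, had 6 and 7 distal peaks in Tbx1-Cre Ctrl library 1 but 0 to 3 in each other library. Nppa had 5, 1 and 3 in Mesp1-Cre Ctrl, 1, 2 and 2 in Tbx1-Cre Ctrl and 1, 2 and 1 in cKO.

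**Figure D2:**
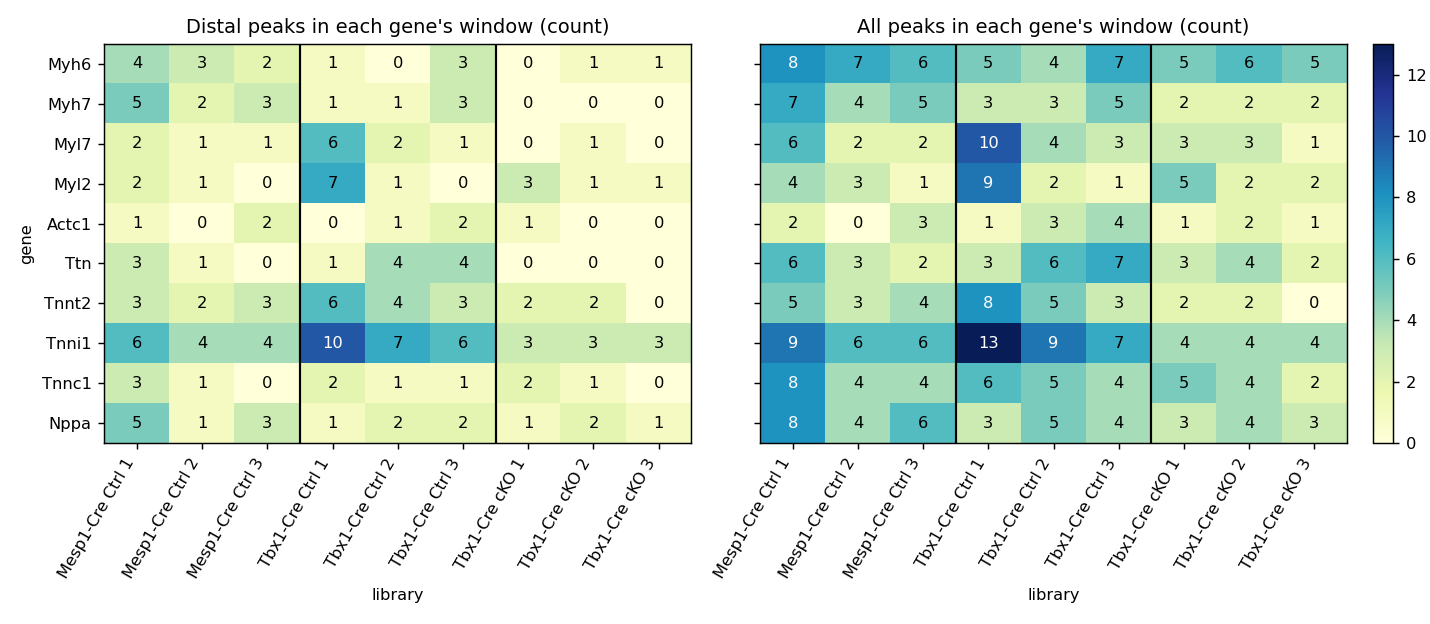
Number of distal peaks (left) and of all peaks (right) in the window of each gene (rows) in each library (columns), with darker cells for more peaks and black lines between groups. The row of Myh7 is 0 for distal peaks in all 3 cKO libraries, and Tnni1 reaches 10 distal peaks in Tbx1-Cre Ctrl library 1.

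The 51 distal merged regions were mostly seen in few libraries. In all, 21 were called in 1 library and 2 in all 9, whereas 13 of the 22 regions at promoters of other genes were called in all 9. Over the genome, regions called in all 9 libraries made up 5.99% of the 55120 distal and 56.8% of the 18223 promoter regions. The 2 at the sarcomere loci lay far from the members, 29935 bp upstream of Tnni1 (chr1:137649383-137650030) and 40341 bp upstream of Nppa (chr4:147334132-147334848). Of the 51, 24 were intergenic, 23 intronic and 4 exonic, and 10 lay inside a member's gene body. Those 10 included 9 with a peak in some Tbx1-Cre Ctrl library, 4 with one in a Mesp1-Cre Ctrl library and 1, in a Myl2 intron, with one in a cKO library.

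A set of 4 distal regions had a peak in all 3 Tbx1-Cre Ctrl libraries and in none of the cKO libraries (4 of 51, against 7.96% of distal regions in the genome), and no region had the opposite pattern (0.0127%). Set against the 9 distal regions at the loci that all 3 Tbx1-Cre Ctrl libraries held, 4 (44.4%) were in no cKO library, beside 27.8% over the genome. They were at Tnni1, 1654 bp upstream of its 5' end (chr1:137677687-137678288, peaks of 200, 201 and 543 bp), in a Tnnt2 intron 6520 bp past the TSS (chr1:137743757-137744187), 33780 bp upstream of Myh7 (chr14:55646907-55647594) and in a Ttn exon (chr2:76806937-76807495). The Tnnt2 and Myh7 regions were also called in Mesp1-Cre Ctrl libraries 1 and 3 and the Ttn region in libraries 1 and 2, whereas the Tnni1 region was called in no Mesp1-Cre Ctrl library. The closest cKO peak to each of the 4 was 11079 to 18165 bp away. With each list reduced to its 19772 widest peaks, no region at the loci was held by all Tbx1-Cre Ctrl libraries and no cKO library.

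Another 4 distal regions had a peak in all 3 Mesp1-Cre Ctrl libraries and in none of the cKO libraries (against 3.13% of distal regions in the genome). They lay 4637 bp upstream of Tnnt2 (chr1:137732415-137733215), 2733 bp upstream of Myh7 (chr14:55615929-55616479), in an intron of Csrp1 41762 bp upstream of Tnni1 (chr1:137637520-137638240) and in an intron of Efs beyond the 3' end of Myh6 (chr14:55543603-55543928). Each of the 4 was also called in exactly 1 Tbx1-Cre Ctrl library, library 1 for the regions near Tnnt2 and Tnni1 and library 3 for those near Myh7 and Myh6. The Efs region had a cKO peak 899 bp away, at the Efs promoter, while the closest cKO peak to the other 3 was 5053 to 24149 bp away. Of the 8 distal regions at the loci held by all Mesp1-Cre Ctrl libraries, 4 (50%) were in no cKO library, beside 21.7% over the genome, and none was missing from all Tbx1-Cre Ctrl libraries, beside 6.46%. No distal region at the loci was held by all cKO libraries and missing from all libraries of either control group (0.317% of distal regions for Mesp1-Cre Ctrl).

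Only 2 distal regions were held by all 3 Tbx1-Cre Ctrl libraries and by no Mesp1-Cre Ctrl library (against 6.96% of distal regions in the genome). Besides the region 1654 bp upstream of Tnni1 this was a Csrp1 intron 47467 bp upstream of Tnni1 (chr1:137631834-137632516), which was also called in cKO libraries 1 and 2. In addition, 2 promoter regions had a peak in all Mesp1-Cre Ctrl libraries and no cKO library (against 1.06% of promoter regions), the internal Tnni1 promoter and the promoter of Nppb (chr4:147359512-147359826), which encodes the natriuretic peptide BNP and neighbours Nppa. With each list reduced to its 19772 widest peaks, the 6 regions at the loci held by Mesp1-Cre Ctrl and not cKO, promoters included, became 1, and the 3 held by Tbx1-Cre Ctrl and not Mesp1-Cre Ctrl became 1. Without Mesp1-Cre Ctrl library 1 these were 6 and 5. The Nppb peaks were 297, 199 and 209 bp wide in Mesp1-Cre Ctrl and 212 bp in Tbx1-Cre Ctrl library 2.

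**Figure D3:**
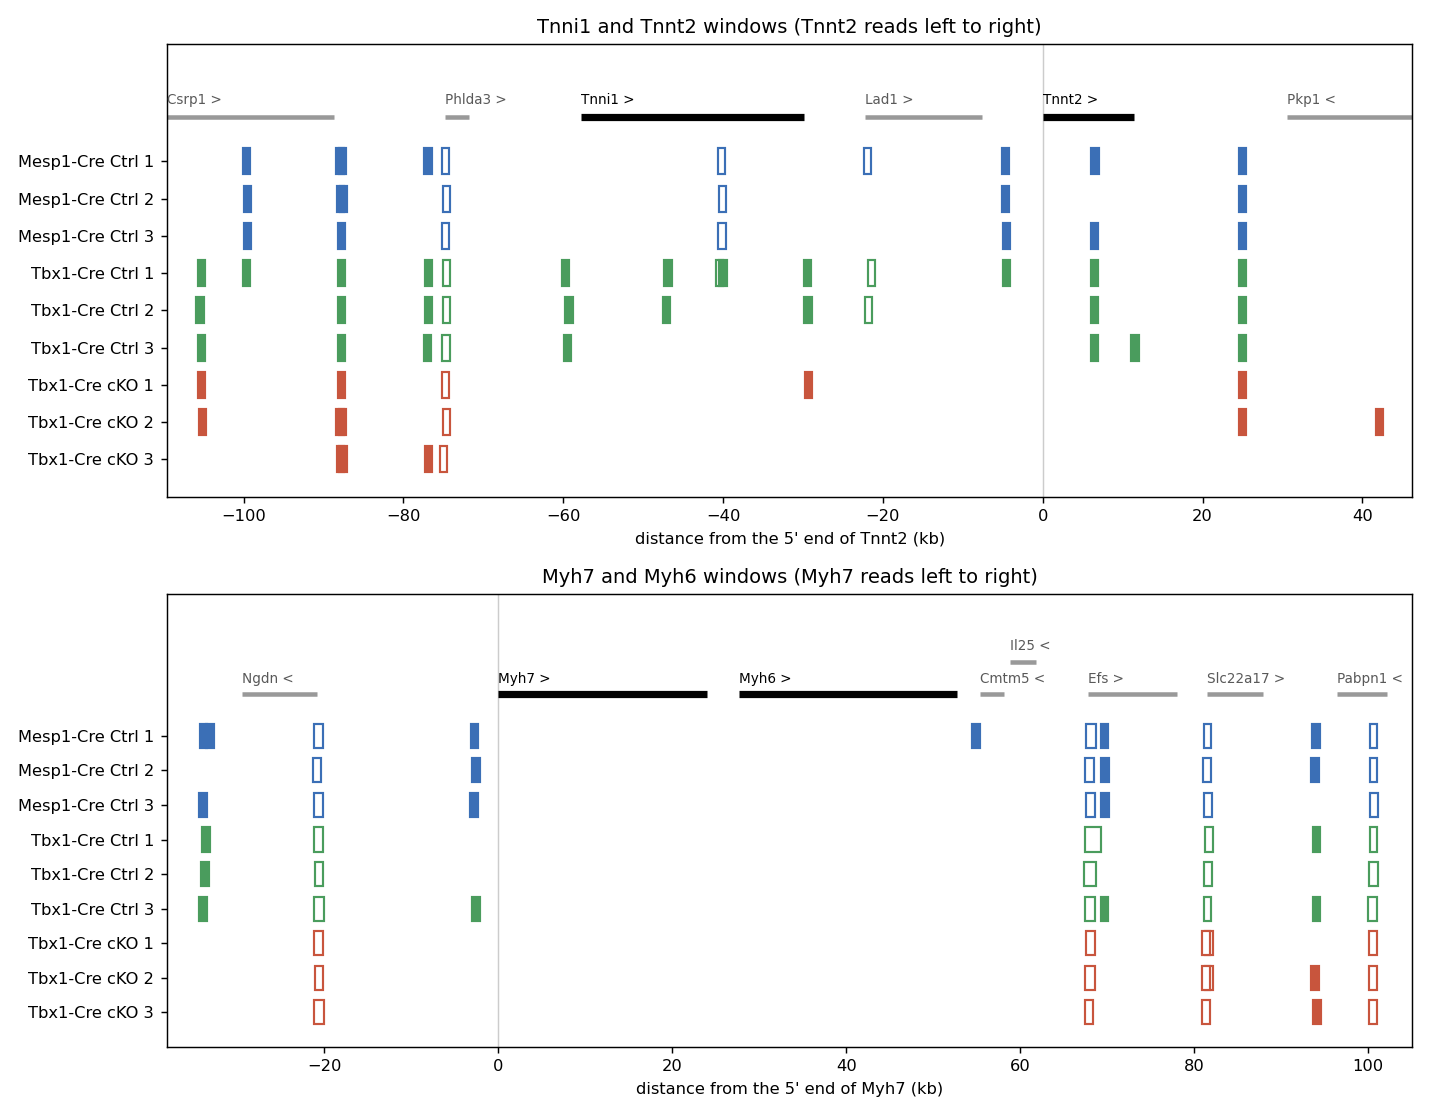
Peaks of each library along the Tnni1 and Tnnt2 windows (top) and the Myh7 and Myh6 windows (bottom), by distance from the 5' end of Tnnt2 or Myh7 in kb, upstream to the left. Filled boxes are distal peaks, open boxes promoter peaks, black bars the members and grey bars other genes, with > or < for genes that read to the right or left, and peaks narrower than 900 bp are drawn at 900 bp. The peaks 4637 bp upstream of Tnnt2 and 2733 bp upstream of Myh7 appear in the 3 Mesp1-Cre Ctrl rows, in 1 Tbx1-Cre Ctrl row and in no cKO row.

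**Figure D4:**
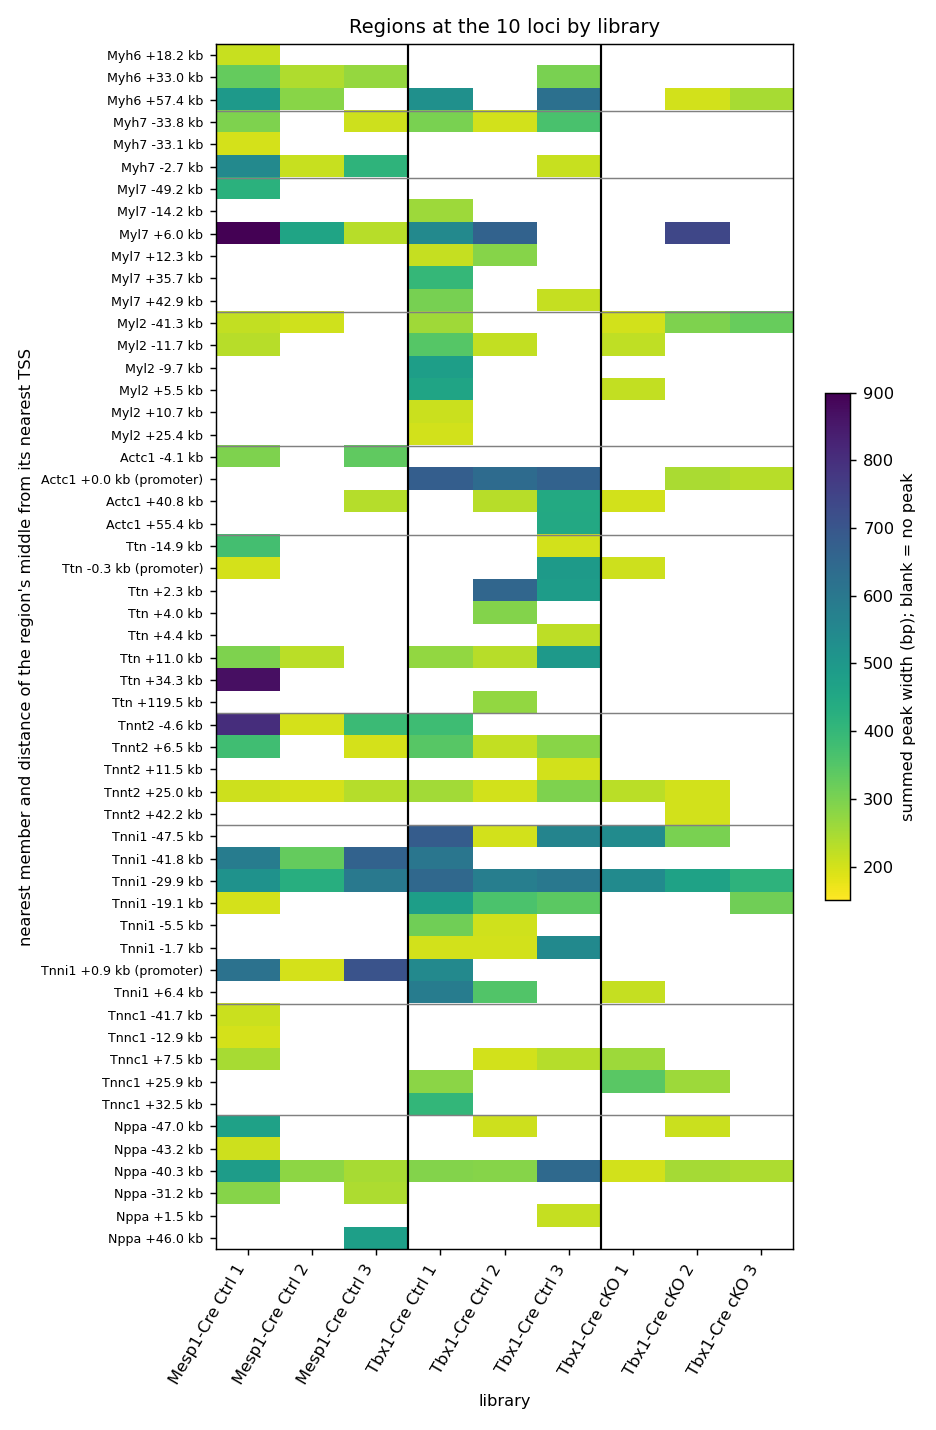
Peak width, summed where a library has several peaks in a region, at the 51 distal and 3 member promoter regions (rows, by nearest member and signed distance from its nearest TSS in kb) in each library (columns). Blank cells have no peak. The Actc1 promoter is filled in the 3 Tbx1-Cre Ctrl columns and 2 cKO columns, and 21 of the distal rows are filled in 1 library.

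The sequences of the 4 regions of these kinds within 10 kb of a member's TSS are shown, since these are the nearest regions that separated groups. Each line gives the central 300 bases on the + strand of mm9, with capitals for matches on either strand to the T-box, GATA, TEAD and NKX2-5 letters given above for the promoters.

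Upstream of Tnni1 (chr1:137677838-137678137): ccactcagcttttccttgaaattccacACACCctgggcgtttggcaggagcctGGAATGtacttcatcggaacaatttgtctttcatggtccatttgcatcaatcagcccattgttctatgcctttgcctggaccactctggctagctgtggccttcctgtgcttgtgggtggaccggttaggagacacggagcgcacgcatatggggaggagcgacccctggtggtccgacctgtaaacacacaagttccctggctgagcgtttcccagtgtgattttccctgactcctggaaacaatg

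Upstream of Tnnt2 (chr1:137732665-137732964): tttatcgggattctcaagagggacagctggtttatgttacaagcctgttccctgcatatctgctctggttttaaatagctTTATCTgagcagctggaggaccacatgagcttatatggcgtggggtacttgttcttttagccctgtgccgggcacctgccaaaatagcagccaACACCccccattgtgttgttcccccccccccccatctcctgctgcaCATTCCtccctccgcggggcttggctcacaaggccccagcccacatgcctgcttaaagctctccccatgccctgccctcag

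Intron of Tnnt2 (chr1:137743822-137744121): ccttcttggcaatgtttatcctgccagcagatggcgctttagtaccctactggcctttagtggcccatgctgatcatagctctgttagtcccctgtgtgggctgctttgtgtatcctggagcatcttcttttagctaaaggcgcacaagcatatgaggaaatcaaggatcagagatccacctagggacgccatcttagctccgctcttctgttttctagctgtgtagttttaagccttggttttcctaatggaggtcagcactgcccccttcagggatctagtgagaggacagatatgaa

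Upstream of Myh7 (chr14:55616054-55616353): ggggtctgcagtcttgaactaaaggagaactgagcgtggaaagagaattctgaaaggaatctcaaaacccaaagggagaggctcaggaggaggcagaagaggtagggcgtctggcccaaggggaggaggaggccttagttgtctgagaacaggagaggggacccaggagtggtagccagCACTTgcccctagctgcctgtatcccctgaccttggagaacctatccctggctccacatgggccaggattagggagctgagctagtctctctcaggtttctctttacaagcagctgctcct

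The region upstream of Tnnt2 held a GATA match (position 81), a T-box core (position 174), a TEAD match (position 220) and 5 E-boxes. The region upstream of Tnni1 held a T-box core (position 28) and a TEAD match (position 54), the region upstream of Myh7 an NKX2-5 core (position 180), and the Tnnt2 intron none of these. Over the 11 distal regions named above, 2 held a GATA match, 4 a T-box core, 4 an NKX2-5 core, 2 a TEAD match and 11 an E-box. Among 55080 distal regions of the genome, windows of the same length held these in 15.2%, 41.8%, 51.2%, 19.9% and 81.4% of cases. None of the 11 held a TATA box, a MEF2 motif or a CArG box, beside 11.5%, 0.594% and 1.46%.

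Other genes of the same program were also compared at their promoters. A peak near a start shared with a neighbouring gene counts for both genes. Of 20 further cardiac contractile and myocardial genes, 6 had a promoter peak in all 9 libraries (Myl4, Tpm1, Actn2, Nebl, Ryr2 and Atp2a2) and 9 in none, among them Tnni3, Mybpc3 and Pln. The number of the 20 with a promoter peak was 11, 8 and 9 in Mesp1-Cre Ctrl, 7, 8 and 7 in Tbx1-Cre Ctrl and 7, 8 and 6 in cKO, and the groups overlapped. Nppb was the gene of this list with a peak in all libraries of a group (Mesp1-Cre Ctrl) and none of another (cKO). Of 7 regulators of heart development, 5, 3 and 6 had a promoter peak in the Mesp1-Cre Ctrl libraries. The Tbx1-Cre Ctrl libraries had 5, 5 and 5, and the cKO libraries 3, 4 and 3. Isl1 and Tbx20 had one in all 9 libraries, Tbx5 in none and Nkx2-5 in 1. Mef2c had one in 2 Mesp1-Cre Ctrl, 3 Tbx1-Cre Ctrl and 3 cKO libraries, and Hand2 in 3, 3 and 1. Gata4 had one in 2 Mesp1-Cre Ctrl, 3 Tbx1-Cre Ctrl and no cKO libraries (all 3 Tbx1-Cre Ctrl and no cKO library for 1.37% of genes).

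Promoter peaks were also counted at markers of other cell types. Over all protein-coding genes, 54.4% had a promoter peak in all 3 Mesp1-Cre Ctrl libraries, 58.1% in all 3 Tbx1-Cre Ctrl libraries and 49.9% in all 3 cKO libraries. Those shares are over whole groups, whereas the counts per library that follow have no such share beside them. The cKO lists were also the shortest on average. Of 6 epithelial genes, 3, 1 and 1 had a promoter peak in Mesp1-Cre Ctrl, 3, 1 and 3 in Tbx1-Cre Ctrl and none in the cKO libraries. No epithelial gene had one in all libraries of any group. Of 4 smooth muscle genes, 3, 2 and 3, then 4, 2 and 3, then 2, 2 and 0 had one in the same order. Myh11 had one in 3 Mesp1-Cre Ctrl, 2 Tbx1-Cre Ctrl and no cKO libraries. Acta2 had one in 3, 3 and 2 libraries of these groups, Tagln in 1, 3 and 2, and Cnn1 in 1, 1 and 0. Of 12 skeletal muscle contractile genes 2 to 4 and of 6 endothelial and blood genes 1 or 2 had one in each library, and of 3 neural crest genes none did. The part of list length and of these other cells in the counts at the sarcomere loci was not tested.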

How the data were processed

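Peak lists of 9 ATAC-seq libraries (3 groups of 3) were used. According to the study and the labels, the authors trimmed reads with cutadapt, aligned them with Bowtie2 2.3.4.3 to mm9 and kept unique concordant pairs. They removed duplicates and mitochondrial reads, and called peaks per library with MACS2. The deposited files give chromosome, start and end in bp, with no other value, score or height, so depth is unknown, and absence of a peak does not measure closed chromatin.

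Gene bodies and TSS were taken from the GENCODE M1 (NCBIM37) annotation. Tnnc1 has a longer and a shorter model, and the shorter was used. Groups were compared by exact two-sided permutation of the difference in means (20 relabellings, smallest p 0.1), with Benjamini-Hochberg adjustment. The same counts were made for all protein-coding genes. The region rule named every distal region held by all 3 libraries of a group and by none of another, and those held by all 9. List genes were named by the same rule at promoters or as examples chosen after their values were seen, and printed sequences were the member promoters and named regions within 10 kb of a member's TSS, the Ttn promoter excepted. The members, gene lists and tests were chosen with earlier results of these data known. Alternatives were window size, promoter distance, peak width, overlap, left-out libraries, scaling by list length and a replicate block. Python 3.11.15, numpy 2.4.6, pandas 2.3.3, scipy 1.17.1, pysam 0.24.0 and matplotlib 3.10.9 were used, and procedures were tested on simulated data.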

Additional observations from a re-analysis of the deposited data

How the results depend on the processing

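Differences in distal and in all peaks between cKO and either control group kept their direction with windows of 10 and 100 kb, any overlap with the window, a promoter distance of 2.5 kb, coding TSS only, the widest 75% of each list, the longer Tnnc1 model and every left-out library. All peaks at the loci per 10000 peaks of the list, a scaling chosen after seeing the data, differed by 1.74 (cKO minus Tbx1-Cre Ctrl), 2.29 (Mesp1-Cre Ctrl minus Tbx1-Cre Ctrl) and -0.549 (cKO minus Mesp1-Cre Ctrl). With an equal number of widest peaks the differences in all peaks became 3.33 (cKO minus Tbx1-Cre Ctrl), 2 (Mesp1-Cre Ctrl minus Tbx1-Cre Ctrl) and 1.33 (cKO minus Mesp1-Cre Ctrl), those in distal peaks 1.67, 1.33 and 0.333, and those per 10000 peaks 0.843 (cKO minus Tbx1-Cre Ctrl) and 0.169 (cKO minus Mesp1-Cre Ctrl); the cause was not tested. Per 10000 peaks, Mesp1-Cre Ctrl minus Tbx1-Cre Ctrl turned to -0.373 with 10 kb windows, -0.504 with the widest 75% and -0.206 without Mesp1-Cre Ctrl library 1. The member promoter difference between cKO and Mesp1-Cre Ctrl fell to 0 with equal numbers, without Mesp1-Cre Ctrl library 1, and without the longest list of both control groups, an alternative chosen after seeing the data.

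Without 1 library at a time, the difference between cKO and Tbx1-Cre Ctrl ranged from -19 to -12.5 for all peaks, -16.2 to -11.2 for distal peaks, -1 to -0.5 for member promoters and -1.65 to -0.753 per 10000 peaks. The difference between cKO and Mesp1-Cre Ctrl ranged from -16 to -4, -12.2 to -4.17, -0.5 to 0 and -2.16 to -1.05, and that between the control groups from -12.7 to -0.667, -10.2 to -1.83, -0.667 to -0.167 and -0.206 to 0.952. 

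Among regions held throughout a group and absent from another, those held by Mesp1-Cre Ctrl and not cKO (6) numbered 3 with 10 kb windows, 3 with the widest 75%, 3 when a peak had to cover 50% of the region, 1 with equal numbers and 6 to 11 without 1 library (11 without Mesp1-Cre Ctrl library 2). Those held by Tbx1-Cre Ctrl and not cKO (4) numbered 7 with 100 kb windows, 0 with equal numbers and 4 to 8 without 1 library (8 without Tbx1-Cre Ctrl library 3). Those held by Tbx1-Cre Ctrl and not Mesp1-Cre Ctrl (3) numbered 1 with equal numbers, 7 without the longest lists and 3 to 7 without 1 library (7 without Tbx1-Cre Ctrl library 3, 5 without Mesp1-Cre Ctrl library 1). Regions held by cKO numbered 0 to 1 against Tbx1-Cre Ctrl and 0 to 2 against Mesp1-Cre Ctrl, and those held by Mesp1-Cre Ctrl and not Tbx1-Cre Ctrl 0 to 3, without 1 library, and 1 (cKO, not Tbx1-Cre Ctrl) and 3 (Mesp1-Cre Ctrl, not Tbx1-Cre Ctrl) without the longest lists. The libraries share only replicate numbers: same-numbered libraries of cKO and Tbx1-Cre Ctrl had deviations correlated at 0.155, -0.017 and 0.103 over 20127 genes, and not every library correlated best with its own number. With a replicate block (exact sign flip over 3 pairs, smallest p 0.25) the distal difference between cKO and Tbx1-Cre Ctrl was -14.3 with p = 0.25 and no difference reached a lower p. Depth and peak height could not be used to limit these comparisons.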
